A study of Mus musculus with 11 samples.

Results

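The proteasome genes described here were all genes of the count table whose symbol in the GENCODE M21 annotation of GRCm38 is Psma, Psmb, Psmc, Psmd, Psme, Psmf or Psmg followed by a digit. This spelling found 50 of the 23074 genes in the table. Of these, 49 encode proteasome subunits, activators, inhibitors or assembly factors, and 1, Psmc3ip, shares only the spelling. Testis RNA was sequenced from 5 wild type and 6 Rfx2-/- mice at postnatal day 21 (P21), which were separate animals on a mixed C57BL/6, 129/Sv and FVB/N background. The Rfx2-/- mice carried a germline deletion of exon 7 of Rfx2, which encodes much of the DNA binding domain, in all cells of the animal. RFX2 is a transcription factor of spermatocytes and round spermatids. Whole decapsulated testes were used, so each value is a mixture of germ cells and somatic cells.

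The proteasome degrades proteins that carry ubiquitin chains. Its core, the 20S particle, is a barrel of stacked rings: the outer rings are built of alpha subunits (Psma genes), and the inner rings of beta subunits (Psmb genes), among which Psmb5, Psmb6 and Psmb7 encode the proteolytic sites. The 19S particle caps the barrel, and its ATPases (Psmc genes) and other subunits (Psmd genes) bind, unfold and admit substrates. Some subunits are exchanged by cell type. Psma8 takes the place of Psma7 in the alpha ring of meiotic and later male germ cells. Psmb8, Psmb9 and Psmb10 take the places of Psmb5, Psmb6 and Psmb7 in the immunoproteasome, which interferon induces and which makes peptides for antigen presentation, and Psmb11 replaces Psmb5 in the cortex of the thymus. Other caps are PA28 (Psme1 and Psme2, induced by interferon), the nuclear PA28 gamma (Psme3) and PA200 (Psme4), which is abundant in testis and is known for acetylated histones as substrates.

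Between 22232097 and 29769483 reads were counted per mouse. All levels below are in CPM, read counts relative to the library size after TMM scaling in edgeR, and on this scale the 15745 tested genes had a median log2 fold change of -0.05. Scaling by total counts alone moved this median to -0.22, so small differences of opposite sign were read against it. Rfx2 itself, counted over all exons, ranged from 191 to 472 CPM in wild type and from 282 to 324 CPM in Rfx2-/- testis, and a count over the whole gene does not show the loss of exon 7. Wild type replicates 3 and 5 stood apart. The summed level of 8 spermatocyte markers, all detected in every mouse, was 3191 and 3145 CPM in these mice, 5532 to 5943 in wild type replicates 1, 2 and 4, and 5542 to 6831 in Rfx2-/- mice. Ldhc made up much of this sum, with 1273 and 1208 CPM in wild type replicates 3 and 5 and 2711 to 3120 CPM in replicates 1, 2 and 4. Not all 8 markers were lowest in replicates 3 and 5. Among wild type mice, Sycp3 and Hormad1 were lowest in replicate 1 (192 and 179 CPM). They were at 199 and 182 CPM in replicate 3 and at 215 and 194 CPM in replicate 5. The 8 spermatogonial markers summed to 513 and 582 CPM in replicates 3 and 5, while wild type replicates 1, 2 and 4 had 282 to 387 and Rfx2-/- mice 274 to 389 CPM. In RNA of whole testis, fewer cells of a type and less RNA per cell cannot be told apart. Log2 fold changes without both mice are given for the named genes, as listed in the processing section, that they moved by over 1.5 times. They are not given for Psmb1, Psmc6 and Nfe2l1, so the part of both mice in those values is not shown.

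Across the 49 tested members, log2 fold changes of Rfx2-/- over wild type testis lay between -0.41 (Psma7) and 0.55 (Psme4), with a median of 0.08. No member passed an adjusted p of 0.01 in either direction, by the quasi-likelihood test of edgeR with Benjamini-Hochberg adjustment over all tested genes. Of all tested genes, 1.94% were called lower and 0.730% higher in Rfx2-/- testis at this limit. At an unadjusted p under 0.05 stood 15 of the 49 members (Psma7, Psmb7, Psmc1, Psmc2, Psmc3, Psmc3ip, Psmc5, Psmd2, Psmd3, Psmd4, Psmd5, Psmd12, Psme1, Psme2 and Psme4), against 41.8% of all tested genes. Without wild type replicates 3 and 5, 6 of the 49 did, against 25.6% of all genes tested there. The Wald test of DESeq2 called 1 member lower (Psma7) and 3 higher (Psmc1, Psmd2 and Psmd3) at an adjusted p of 0.01, where it called 5.79% of all tested genes lower and 7.28% higher. The limma voom test with quality weights called only Psma7, lower, against 4.33% of all tested genes lower and 2.33% higher. At an adjusted p of 0.05 in edgeR, the same 1 and 3 members passed, 2.04% and 6.12% of the members tested, against 8.78% of all tested genes lower and 6.15% higher. The 5 wild type and the 6 Rfx2-/- values did not overlap in 1 member that was lower (Psma7) and in 4 that were higher (Psmc1, Psmc5, Psmd2 and Psmd3), against 5.20% and 6.50% of all tested genes. As shares of the members these are 2.04% and 8.16%, near or below those of all tested genes. Relative to total counts alone, the genotypes overlapped in each of Psma7, Psmc1, Psmc5, Psmd2 and Psmd3.

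Promoter sequence is shown for Psma7, the member that was lower without overlap, for Psme4, the germ cell activator, and for Psmc1 and Psmd2, 2 of the members that were higher without overlap. RefSeq promoter windows of GRCm38.p6 (250 bases before to 50 after a start) were at hand for 42 of the 50 members, in 45 windows, and not for Psma8, Psmb1, Psmb2, Psmb7, Psmc3, Psmd3, Psmd7 and Psmg2. These 4 motifs were searched on both strands: GTTGCC and GTTACC, parts of the X-box that RFX proteins bind, TGACNNNGC, the core of the antioxidant response element that NRF factors bind, and CGGAAG, the core of sites for ETS factors. The stretches are 150 bases of the gene's strand, 5′ to 3′, that end before the first base annotated to the gene. They lie at chr2:180042465-180042614, minus strand (Psma7), chr11:30771576-30771725, plus strand (Psme4), chr12:100110004-100110153, plus strand (Psmc1) and chr16:20651502-20651651, plus strand (Psmd2). Capitals mark matches, which did not overlap each other, where CTTCCG and GGCAAC are CGGAAG and GTTGCC on the other strand.
Psma7: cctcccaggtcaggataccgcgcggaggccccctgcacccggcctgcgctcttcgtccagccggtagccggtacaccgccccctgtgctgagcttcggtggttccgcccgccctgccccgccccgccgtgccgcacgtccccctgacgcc
Psme4: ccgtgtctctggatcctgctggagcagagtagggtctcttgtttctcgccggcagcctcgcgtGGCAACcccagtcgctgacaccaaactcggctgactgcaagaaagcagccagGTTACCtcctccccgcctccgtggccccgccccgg
Psmc1: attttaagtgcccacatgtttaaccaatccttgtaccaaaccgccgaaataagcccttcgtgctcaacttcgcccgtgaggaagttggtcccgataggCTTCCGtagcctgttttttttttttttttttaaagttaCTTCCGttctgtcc
Psmd2: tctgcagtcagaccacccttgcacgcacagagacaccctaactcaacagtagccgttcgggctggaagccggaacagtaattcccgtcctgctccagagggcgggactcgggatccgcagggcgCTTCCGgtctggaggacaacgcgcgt
The stretch of Psma7 held none of the 4 motifs. That of Psme4 held GTTGCC 136 bases and GTTACC 84 bases before the RefSeq start, that of Psmc1 held CGGAAG 100 and 62 bases before it, and that of Psmd2 held CGGAAG 26 bases before it. Over the whole windows, CGGAAG stood in 24 of the 45 of members (53.3%) and in 16.9% of all 32851 windows. GTTGCC stood in 9 member windows (20%, against 12.5% of all), GTTACC in 3 (6.67%, against 7.21%) and TGACNNNGC in 6 (13.3%, against 12.4%). A match describes the letters of a window and is not a binding site.

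The clearest difference lay within the alpha ring, between the 2 genes for its alpha4 position. Psma7 (ENSMUSG00000027566, chromosome 2, 180036374 to 180042433, minus strand) is used in most cells, and Psma8 (ENSMUSG00000036743, chromosome 18, plus strand) in male germ cells. Psma7 was at 82.3, 95.2, 105, 99.6 and 125 CPM in replicates 1 to 5 of the wild type, and at 71.7, 69.1, 81.9, 80.2, 75.5 and 78.2 CPM in Rfx2-/- replicates 6 to 11. On the TMM scale all Rfx2-/- mice lay below the lowest wild type mouse, by a narrow margin. Relative to total counts alone, Rfx2-/- replicates 8 and 9 lay above wild type replicate 1, so the genotypes overlapped. The log2 fold change of Psma7 by total counts was -0.59 (adjusted p = 0.0234, edgeR). The means were 101 ± 15.7 CPM (SD, n = 5) and 76.1 ± 4.99 CPM (SD, n = 6) (log2 fold change -0.41, SE 0.095, adjusted p = 0.0227, edgeR). Without wild type replicate 1 the adjusted p was 0.00635 (log2 fold change -0.48, edgeR), and without wild type replicates 3 and 5 it was 0.0599 (log2 fold change -0.27). It was above 0.05, at 0.0509 to 0.0568, without any 1 of wild type replicate 3 and Rfx2-/- replicates 6, 7 and 10.

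Psma8 was at 287, 329, 216, 325 and 230.4 CPM in the wild type and at 321, 331, 351, 303, 321 and 328 CPM in the Rfx2-/- mice. Wild type replicates 3 and 5 were the lowest, and the other wild type values lay within or below the Rfx2-/- range. The means were 277 ± 52.4 CPM (SD, n = 5) and 326 ± 15.7 CPM (SD, n = 6; log2 fold change 0.23, SE 0.11, adjusted p = 0.142, edgeR), and without wild type replicates 3 and 5 the log2 fold change was 0.06. Per kilobase of merged coding transcript exons, Psma8 exceeded Psma7 in every mouse. The ratio of the levels per kb was 2.44, 2.41, 1.44, 2.27 and 1.28 in wild type and 3.12, 3.34, 2.99, 2.63, 2.97 and 2.92 in Rfx2-/- replicates. The genotypes did not overlap. The mean log2 ratio was 0.92 ± 0.45 (SD, n = 5) in wild type and 1.58 ± 0.11 (SD, n = 6) in Rfx2-/- testis, and the difference of 0.65 had a two-sided exact permutation p of 0.00216, the smallest that these group sizes allow (adjusted p = 0.00866 over 4 ratios). Without wild type replicates 3 and 5, the 2 lowest ratios, the difference was 0.33 and the exact p 0.0119, again the smallest possible. A ratio within a library does not depend on scaling between libraries. The ratio was lowest in the 2 mice with the lowest summed spermatocyte markers, whose part in the difference was not tested.

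**Figure D1:**
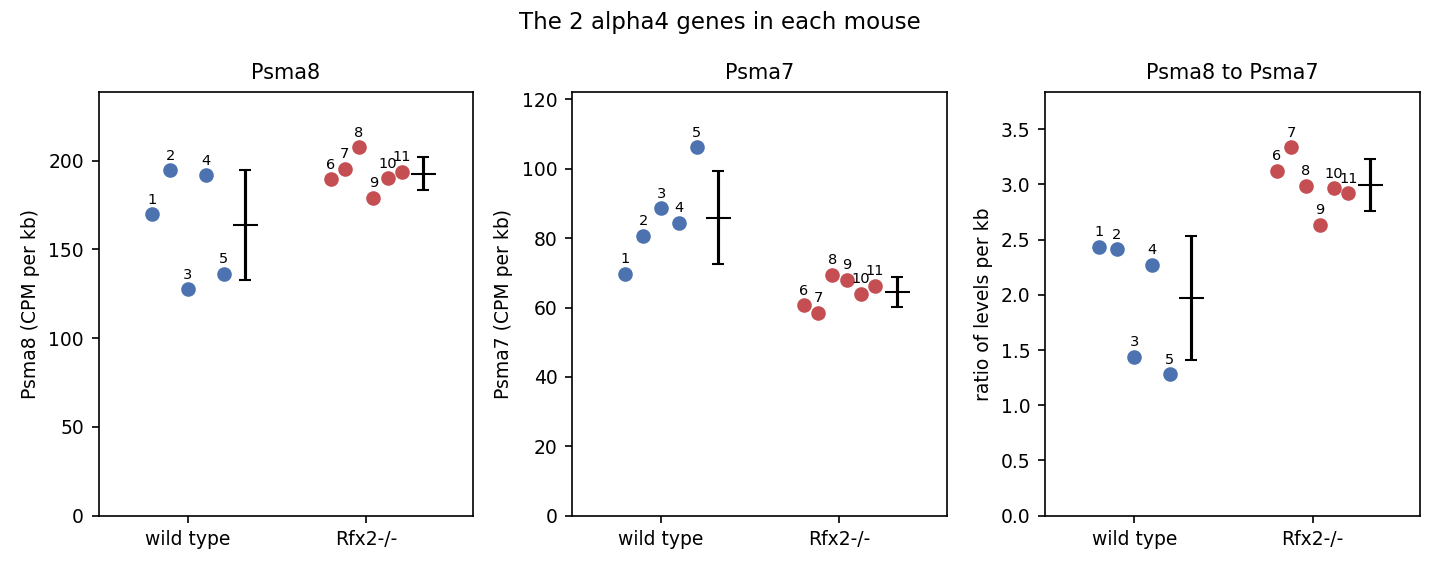
Levels of Psma8 and Psma7 in CPM per kb and their ratio, in each mouse (points, numbered by replicate), with mean and SD (black). Ratios ran from 1.28 to 2.44 in wild type and from 2.63 to 3.34 in Rfx2-/- mice, with wild type replicates 3 and 5 the lowest.

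The other 6 constitutive alpha subunits (Psma1 to Psma6) had log2 fold changes from -0.11 to 0.23, none past an adjusted p of 0.05. Among the beta subunits with a structural role, Psmb1 to Psmb4, they lay between -0.07 and 0.11. The constitutive catalytic subunits were at 33.4 to 49.9 CPM (Psmb5, the chymotrypsin-like site), 138 to 202 CPM (Psmb6, the caspase-like site) and 144 to 175 CPM (Psmb7, the trypsin-like site) in wild type. In Rfx2-/- testis they were at 42.7 to 47.4, 177 to 223 and 166 to 185 CPM. The genotypes overlapped for all 3, with log2 fold changes of 0.08, 0.19 and 0.14 and adjusted p-values of 0.509, 0.22 and 0.116 (edgeR). Under scaling by total counts the values for Psmb5 and Psmb7 were -0.07 and -0.03, opposite in sign. Without wild type replicates 3 and 5 they were -0.05 for Psmb5, 0.03 for Psmb6 and 0.08 for Psmb7. Over all 14 constitutive 20S subunits, 8 had a value above 0 and 6 below, with a median of 0.04 against -0.05 for all tested genes. By total counts 2 of 14 lay above 0 and the median was -0.12, and without wild type replicates 3 and 5 it was -0.00038 with 7 above 0. Under both scalings 10 of 14 exceeded the all-gene median.

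The immunoproteasome subunits were scarce. Psmb8 was at 2.61, 2.35, 2.64, 2.56 and 2.92 CPM in wild type and at 1.96, 2.56, 1.62, 1.6, 2.96 and 4.75 CPM in Rfx2-/- mice. The Rfx2-/- mice were the more variable, with replicates 10 and 11 above and replicates 6, 8 and 9 below every wild type mouse (log2 fold change -0.02, SE 0.27, adjusted p = 0.949, edgeR). Psmb9 was at 2.57, 2.86, 2.36, 2.45 and 2.23 CPM in wild type and at 1.24, 1.49, 1.62, 2.22, 1.91 and 3.31 CPM in Rfx2-/- mice, where 5 of 6 lay below the lowest wild type mouse and replicate 11 above the highest (log2 fold change -0.34, SE 0.23, adjusted p = 0.261, edgeR). Psmb10 was at 9.15 to 12.1 CPM in wild type and 7.97 to 12.6 CPM in Rfx2-/- mice (log2 fold change -0.09, SE 0.14, adjusted p = 0.634, edgeR; 0.01 without wild type replicates 3 and 5). Psmb8 and Psmb9 lie on chromosome 17, as does Rfx2, and so does Tap1, whose exons overlap Psmb9. The structural subunit gene Psmb1 lies there too (log2 fold change -0.01, adjusted p = 0.915, edgeR), and any part of the shared chromosome was not tested. The values of Psmb8 and Psmb9 rest on few reads: Psmb9 was counted 31 to 85 times per mouse and Psmb8 35 to 109 times.

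Set against their counterparts in the same mouse, the immune subunits were a small share in both genotypes. The level of Psmb8 per kb was 0.0345 of that of Psmb5 in wild type and 0.0311 in Rfx2-/- testis, Psmb9 was at 0.00691 and 0.00482 of Psmb6, and Psmb10 at 0.0603 and 0.0512 of Psmb7 (means of n = 5 and n = 6). Reads that were not counted make these shares uncertain. Other genes hold 54.1% of the 50-base stretches of Psmb5, and exons of Nek6 overlap 34.9% of those of Psmb7, which can raise a share. Exons of other genes overlap 11.1% of those of Psmb8 and 12.6% of those of Psmb9, which can lower one. The differences of the mean log2 ratios were -0.23, -0.61 and -0.24, and none passed an exact permutation test (two-sided p = 0.446, 0.0563 and 0.173, adjusted 0.446, 0.113 and 0.231 over 4 ratios). The Psmb9 to Psmb6 ratio depended on 1 mouse: without Rfx2-/- replicate 11 its difference was -0.79, with an adjusted exact permutation p of 0.0159. The thymus subunit Psmb11 had 15 counts in all, in 8 of the 11 mice and at most 3 in any mouse, and was not tested.

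Of the activators, Psme4 (PA200, ENSMUSG00000040850, chromosome 11, 30771726 to 30880361, plus strand) is the one known from germ cells. It was at 623, 489, 323, 520.3 and 284 CPM in wild type and at 739.7, 831, 567, 546, 658 and 592 CPM in Rfx2-/- mice. Wild type replicates 3 and 5 were again the lowest, and wild type replicate 1 lay among the Rfx2-/- mice. The means of 448 ± 142 CPM (SD, n = 5) and 656 ± 111 CPM (SD, n = 6) did not differ past the test's limit (log2 fold change 0.55, SE 0.21, adjusted p = 0.0775, edgeR). The log2 fold change was 0.28 without replicates 3 and 5, 0.70 without replicate 1, and 0.34 when the round spermatid markers, which summed to 8.99 to 475 CPM in wild type and 33.2 to 717 CPM in Rfx2-/- mice, entered the fit as a covariate. In the other direction, Psme1 (PA28 alpha) was at 21.4, 26.6, 31, 26.5 and 35.1 CPM in wild type and at 19.4, 19.9, 20.4, 23.4, 22.1 and 26.5 CPM in Rfx2-/- mice (log2 fold change -0.36, SE 0.13, adjusted p = 0.0711, edgeR). Psme2 (PA28 beta), its partner in the ring, was at 10.8, 13.2, 15.1, 13.6 and 19 CPM and 10.9, 10.5, 13, 13.6, 10.1 and 11.1 CPM (log2 fold change -0.31, SE 0.14, adjusted p = 0.119, edgeR). For both, wild type replicates 3 and 5 were the highest of all mice, and without them the log2 fold changes were -0.17 and -0.11. Psme2b, a close copy of Psme2, was at 0.283 to 0.454 CPM in wild type and 0.0889 to 0.522 CPM in Rfx2-/- mice.

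All 6 immune members (Psmb8, Psmb9, Psmb10, Psme1, Psme2 and Psme2b) had a value below 0, with a median of -0.33, and none was called. Psmb8 was above 0 under DESeq2's size factors (0.0031), without several single mice and without wild type replicates 3 and 5 (0.05), where the median of the 6 was -0.14. Markers of many cell types had values below 0 as well, as had 8621 of all 15745 tested genes. Above 0 lay 6 of 8 spermatocyte markers (median 0.27) and 9 of 10 round spermatid markers (median 0.999). Of the elongating spermatid markers, 5 of 7 lay below 0 (median -0.27). The 10 macrophage markers summed to 148 to 228 CPM in wild type and 127 to 193 CPM in Rfx2-/- testis, with a log2 fold change below 0 for all 10 and a median of -0.41, none called at 0.01. Of these, Aif1 was at 42.9 CPM in wild type replicate 1 and 41.3 CPM in Rfx2-/- replicate 7, the mice with the highest round spermatid markers, and at 1.62 to 13.4 CPM in the others. The other 9 macrophage markers summed to 146 to 226 CPM in wild type and 119.6 to 166 CPM in Rfx2-/- testis. The 9 lymphocyte markers summed to 8.58 to 11.9 and 6.85 to 10.4 CPM, 4 of them at 0 in some mice and 1 (Cd3d) called lower. Values were also below 0 for 7 of 7 Sertoli cell markers (median -0.36), 5 of 5 endothelial markers (-0.39), 5 of 6 Leydig cell markers (-0.54, 1 called lower), 7 of 8 spermatogonial markers (-0.38) and 3 of 4 peritubular markers (-0.10). The part of these cells in the values of the immune subunits was not tested. For the remaining regulators the genotypes overlapped: Psme3 was at 157 to 175 and 154 to 178 CPM (log2 fold change -0.02, SE 0.055, adjusted p = 0.804, edgeR; -0.0063 without wild type replicates 3 and 5), and Psmf1 (PI31, an inhibitor of the 20S particle in vitro) at 102, 76, 52.5, 71 and 53 CPM in wild type and 72.7 to 82.4 (median 79.2) CPM in Rfx2-/- mice (log2 fold change 0.14, SE 0.15, adjusted p = 0.489, edgeR; -0.08 without wild type replicates 3 and 5).

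**Figure D2:**
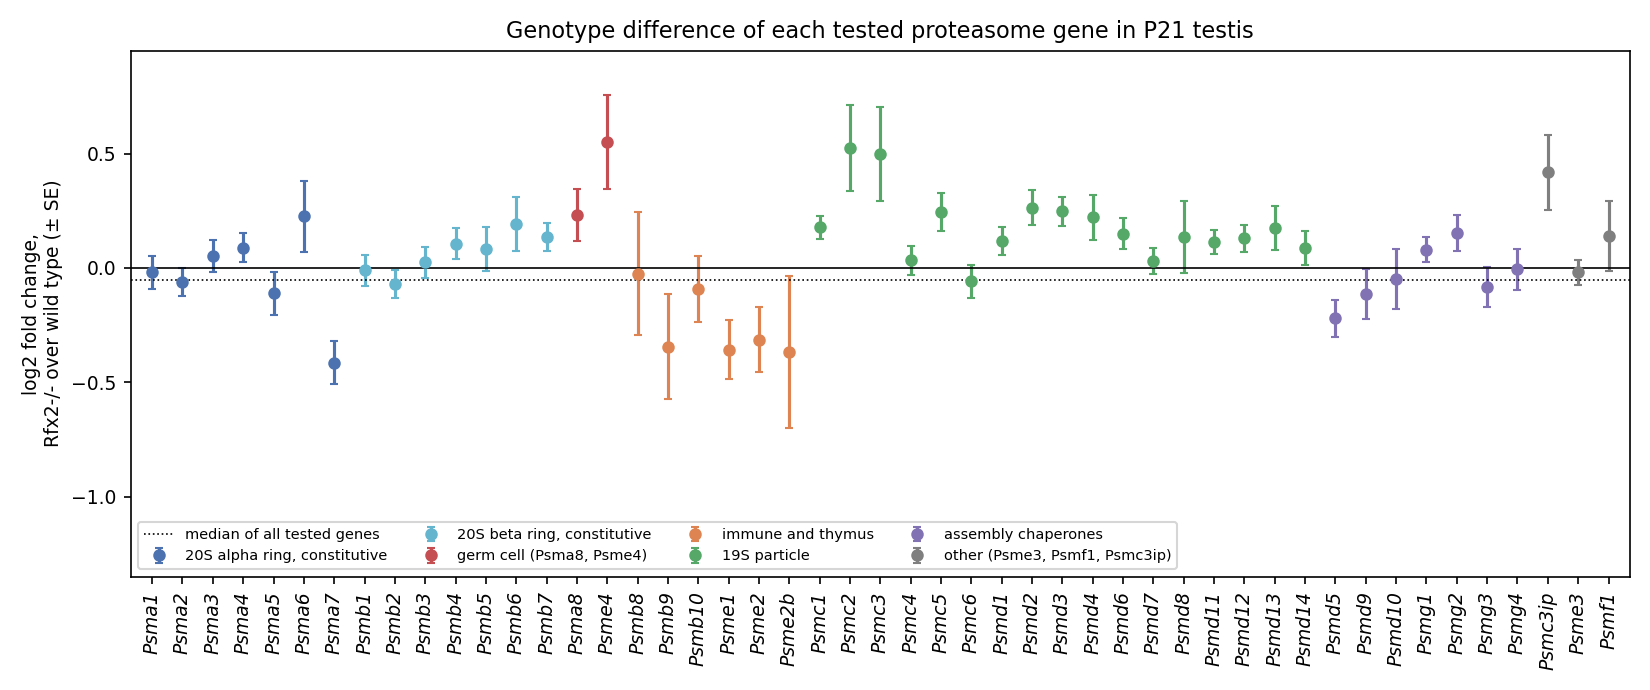
Log2 fold change of each tested member in Rfx2-/- over wild type testis (± SE, edgeR), coloured by role, with a dotted line at the median over all tested genes. Psma7 lies below its neighbours in the alpha ring at -0.41, 16 of 17 subunits of the 19S particle lie above 0, and the 6 immune members lie below 0.

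The 19S particle was the class with the most members on one side. Of its 17 subunits, 16 had a log2 fold change above 0 and only Psmc6 below (-0.06), with a median of 0.15 and none called at an adjusted p of 0.01. Under scaling by total counts the median was -0.0036 and 8 of 17 lay above 0, while 16 of 17 exceeded the all-gene median under both scalings. Without wild type replicates 3 and 5 the median was 0.10 and 14 of 17 lay above 0. By limma voom it was 0.08, also with 14 of 17 above 0. The members whose genotypes did not overlap, chosen here after their values were seen, were the base subunits Psmc1, Psmc5 and Psmd2 and the lid subunit Psmd3. That is 4 of the 17 subunits, against 6.50% of all tested genes that were higher without overlap. Psmd2 (Rpn1, a docking site for ubiquitin receptors) was at 586, 613, 489, 600.0 and 508 CPM in wild type and at 682, 689, 651, 652, 679 and 672 CPM in Rfx2-/- mice. On the TMM scale even the highest wild type mouse lay below all Rfx2-/- mice (log2 fold change 0.26, SE 0.077, adjusted p = 0.0448, edgeR). Psmd3 (Rpn3) was at 119 to 149 CPM in wild type and 155 to 173 (median 163) CPM in Rfx2-/- mice (log2 fold change 0.25, SE 0.063, adjusted p = 0.0308, edgeR). The ATPase gene Psmc1 (Rpt2) was at 97.4 to 114 and 117 to 127 (median 119.7) CPM (log2 fold change 0.18, SE 0.05, adjusted p = 0.0398, edgeR), and Psmc5 (Rpt6) at 116 to 157 and 158 to 174 (median 162) CPM (log2 fold change 0.24, SE 0.082, adjusted p = 0.0604, edgeR). Without wild type replicates 3 and 5 the log2 fold changes were 0.17 for Psmd2 and 0.13 for Psmc5. By total counts the log2 fold changes of Psmd2, Psmd3 and Psmc1 were 0.11, 0.09 and 0.02. Relative to total counts alone, the genotypes overlapped for these genes and for Psmc5. Leaving out 1 mouse at a time brought the adjusted p of Psmd2, Psmd3 and Psmc1 up to 0.092, 0.072 and 0.0777 (edgeR, each without Rfx2-/- replicate 6).

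The larger differences of means in the 19S particle were those of the ATPase genes Psmc2 (Rpt1) and Psmc3 (Rpt5), and they came with a wide spread in wild type. Psmc3 was at 750.4, 666, 367, 658 and 349.7 CPM in wild type and at 851, 902, 709.5, 685, 846 and 733 CPM in Rfx2-/- mice. Wild type replicates 3 and 5 had about as little as each other, and of the other wild type mice only replicate 1 reached into the Rfx2-/- range (log2 fold change 0.50, SE 0.21, adjusted p = 0.0968, edgeR). Psmc2 was likewise lowest in these mice, with 259, 228, 133, 225 and 136 CPM in wild type and 232 to 340.4 (median 276) CPM in Rfx2-/- mice (log2 fold change 0.52, SE 0.19, adjusted p = 0.0714, edgeR). Without those 2 mice the log2 fold changes were 0.20 for Psmc3 and 0.26 for Psmc2. The summed spermatocyte markers were low in the same mice, and their part in these values was not tested.

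**Figure D3:**
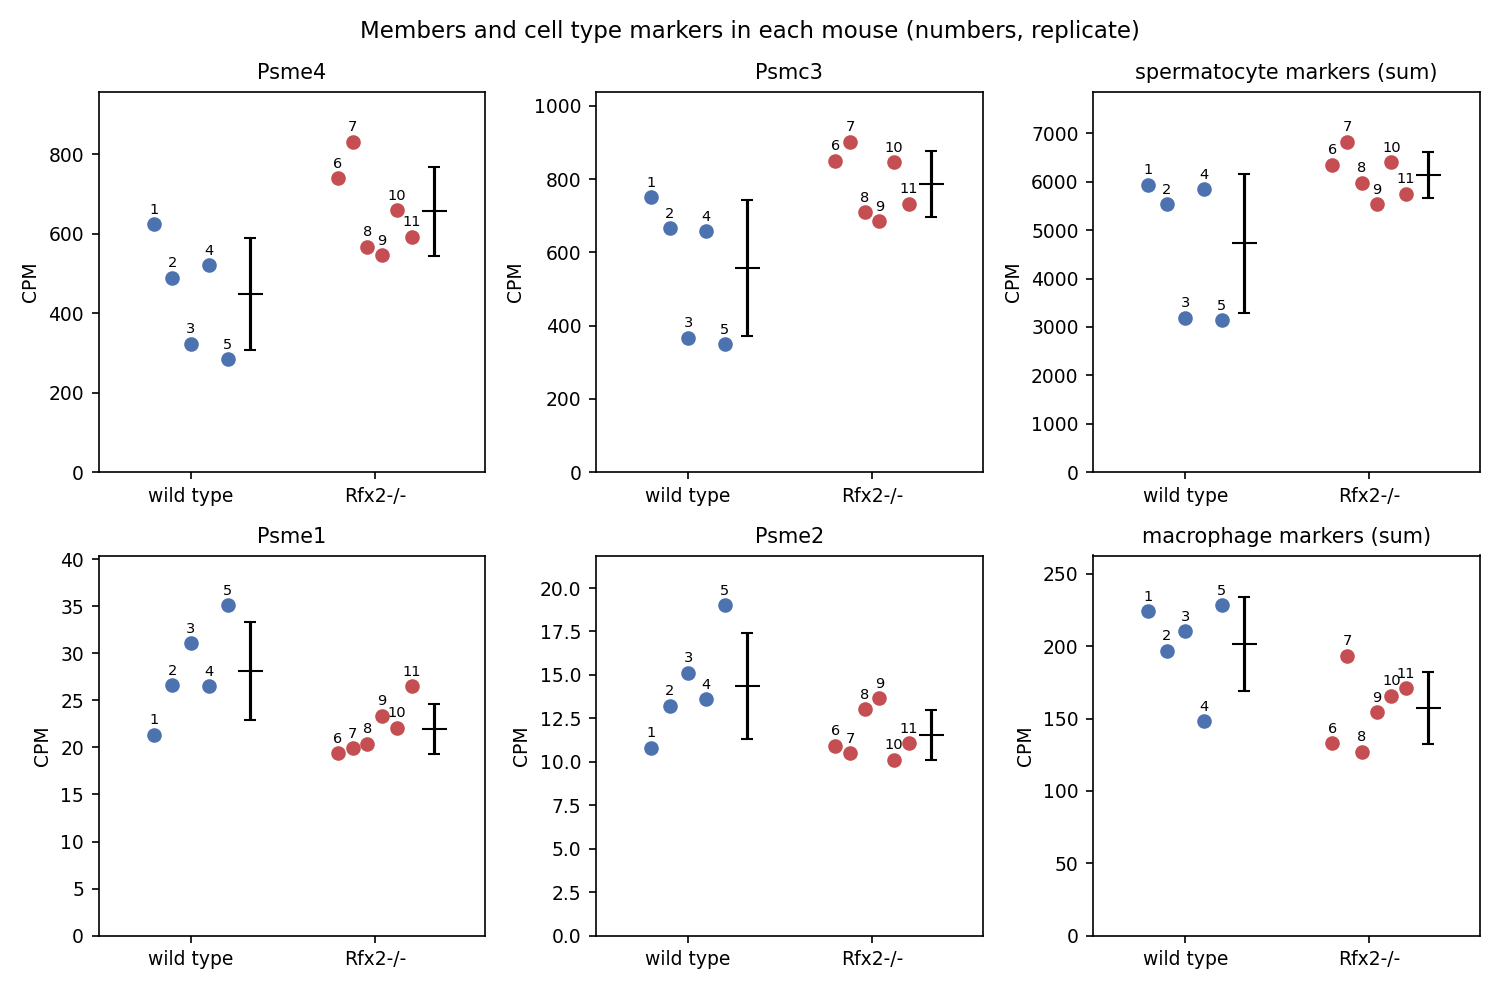
CPM of Psme4, Psmc3, Psme1 and Psme2 and the summed CPM of 8 spermatocyte and 10 macrophage markers, Aif1 among them, in each mouse (points, numbered by replicate), with mean and SD (black). Psme4, Psmc3 and the summed spermatocyte markers are lowest in wild type replicates 3 and 5, while Psme1 and Psme2 are highest there.

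Assembly factors help to build the particles and are not part of the finished enzyme. Psmd5, Psmd9 and Psmd10 (gankyrin) attend the ATPase ring. Psmd5 was at 49.9, 53.1, 57.1, 53.4 and 63.2 CPM in wild type and at 42.6 to 54.6 (median 47.2) CPM in Rfx2-/- mice (log2 fold change -0.22, SE 0.081, adjusted p = 0.074, edgeR). Its log2 fold change was -0.12 without wild type replicates 3 and 5 and -0.39 by total counts (adjusted p = 0.0492, edgeR). Psmd9 was at 57.4, 54.9, 38.1, 52.1 and 40.0 CPM in wild type and at 42.7 to 48.1 (median 44.5) CPM in Rfx2-/- mice (log2 fold change -0.11, SE 0.11, adjusted p = 0.425, edgeR). Wild type replicates 3 and 5 were the lowest of all mice, and the other 3 wild type mice lay above every Rfx2-/- mouse. Without those 2 mice the log2 fold change of Psmd9 was -0.28 (adjusted p = 0.012, edgeR), by total counts it was -0.26 (adjusted p = 0.0326, edgeR) and by limma voom -0.22 (adjusted p = 0.0439). Psmd10 was at 14.3 to 17.5 and 11.7 to 19.7 CPM (log2 fold change -0.05, SE 0.13, adjusted p = 0.787, edgeR; 0.03 without wild type replicates 3 and 5). The chaperones of the alpha ring, Psmg1 to Psmg4, had log2 fold changes of 0.08, 0.15, -0.08 and -0.01, with adjusted p-values of 0.276, 0.151, 0.481 and 0.963 (edgeR). Without wild type replicates 3 and 5 these were 0.08, 0.09, -0.08 and -0.07 on the log2 scale. In wild type they were at 39.8 to 45.3, 43.8 to 53.3, 12.4 to 16.3 and 8.55 to 11.2 CPM, and with all mice the genotypes overlapped for each of the 7 assembly factors. Psmc3ip, a factor of meiotic recombination that is no proteasome part, was at 122, 119, 72, 125 and 70.6 CPM in wild type and 117 to 153 (median 135) CPM in Rfx2-/- mice (log2 fold change 0.42, SE 0.17, adjusted p = 0.0881, edgeR). It too was lowest in wild type replicates 3 and 5, and without them its log2 fold change was 0.16.

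Levels of different genes were compared per kilobase of merged coding transcript exons. In wild type testis Psmc3 had the highest mean of the 50 members with 273 ± 91 CPM per kb (SD, n = 5), followed by Psmb6 with 219.6 ± 38.1, Psmd2 with 189 ± 19.1 and Psma8 with 164 ± 31. Compared within the same wild type mouse, Psmc3 exceeded Psmb6 in 4 of 5 mice (not in replicate 5), Psmb6 exceeded Psmd2 in 5 of 5, and Psmd2 exceeded Psma8 in 5 of 5. Psma7 stood at 85.9 ± 13.3 CPM per kb and Psme4 at 63.8 ± 20.2, near Psme3 at 60.2 ± 2.93, which Psme4 exceeded in 3 of 5 wild type mice (not in replicates 3 and 5). Constitutive subunits that are needed in equal numbers in the finished particle covered a wide range, with means from 8.37 (Psma3) to 219.6 CPM per kb (Psmb6) in the 20S particle. The immune members lay in the lower part: Psme1 was at 22.7 ± 4.2, Psme2 at 14.5 ± 3.07, Psmb10 at 8.31 ± 0.979, Psmb8 at 1.57 ± 0.122, Psmb9 at 1.48 ± 0.142 and Psme2b at 0.466 ± 0.0802 CPM per kb. Reads with more than 1 position in the genome had been discarded, which lowers genes that share sequence with copies elsewhere. More than 50% of the 50-base stretches of the transcripts of Psma5, Psmb3, Psmb5, Psme2 and Psme2b also occur in other annotated genes, as do 21.8% to 28.1% of those of Psma3, Psma4, Psmb7, Psmc3ip, Psmd2 and Psmg3, and the levels of all these genes are uncertain, while Psma7, Psma8, Psme4, Psmc2 and Psmb10 share none. These shares include genes that overlap at the same place, as for Psmb7, Psmc3ip and Psmg3, where a read can have only 1 position. Exons of Gm26938 overlap 26.8% of those of Psmg3. Exons of Nek6 overlap 34.9% of the merged coding transcript exons of Psmb7 and exons of Mlx 29.8% of those of Psmc3ip, where reads were not counted. With the merged exons of all transcripts as the length, Psmc3 stayed first and Psma8 at rank 4, Psmb6 moved from rank 2 to 6 and Psma7 from 14 to 26, and the last 4 ranks were unchanged.

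**Figure D4:**
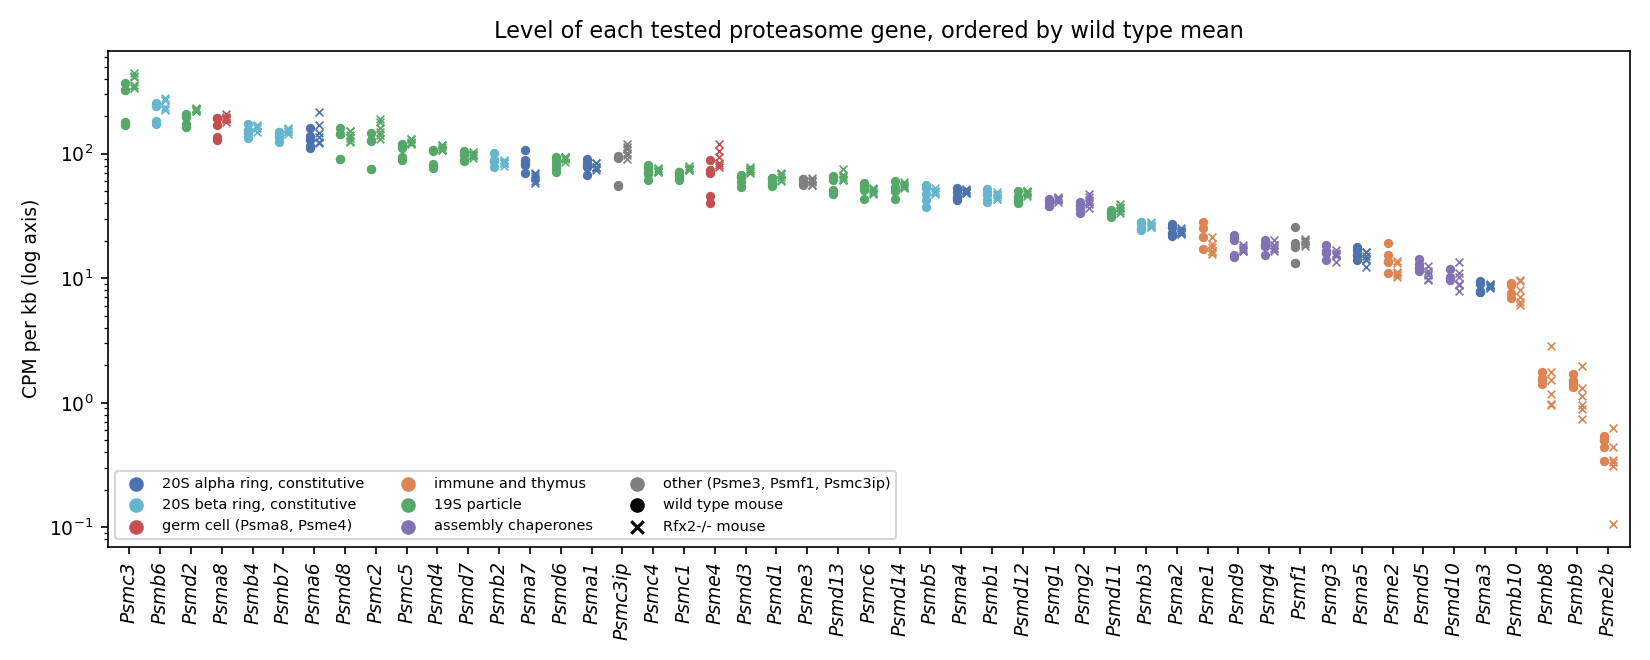
Level of each of the 49 tested members in CPM per kb (log axis) in each wild type (dot) and Rfx2-/- mouse (cross), ordered by the wild type mean and coloured by role. Psmc3 leads with a mean of 273 CPM per kb, and Psmb8, Psmb9 and Psme2b lie below 3 in every mouse.

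Mice of 1 genotype were not alike in these genes. The 2 lowest of the 5 wild type values belonged to replicates 3 and 5 in 22 of the 49 tested members, 44.9%, against 36.1% of all tested genes. These included both germ cell members (Psma8 and Psme4), 4 constitutive beta subunits besides Psma4 and Psma6, and 9 subunits of the 19S particle. The 2 highest belonged to them in 7 members, 14.3%, against 31.1% of all tested genes: Psma7, Psmb8, Psmb10, Psmd5, Psmd10, Psme1 and Psme2. The relative spread was wider in wild type than in Rfx2-/- mice in 38 of the 49, 77.6%, against 81.6% of all tested genes. In wild type the highest value was 2.20 times the lowest for Psme4, 2.15 times for Psmc3 and 1.95 times for Psmc2, but 1.17 times for Psmc1 and 1.11 times for Psme3.

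**Figure D5:**
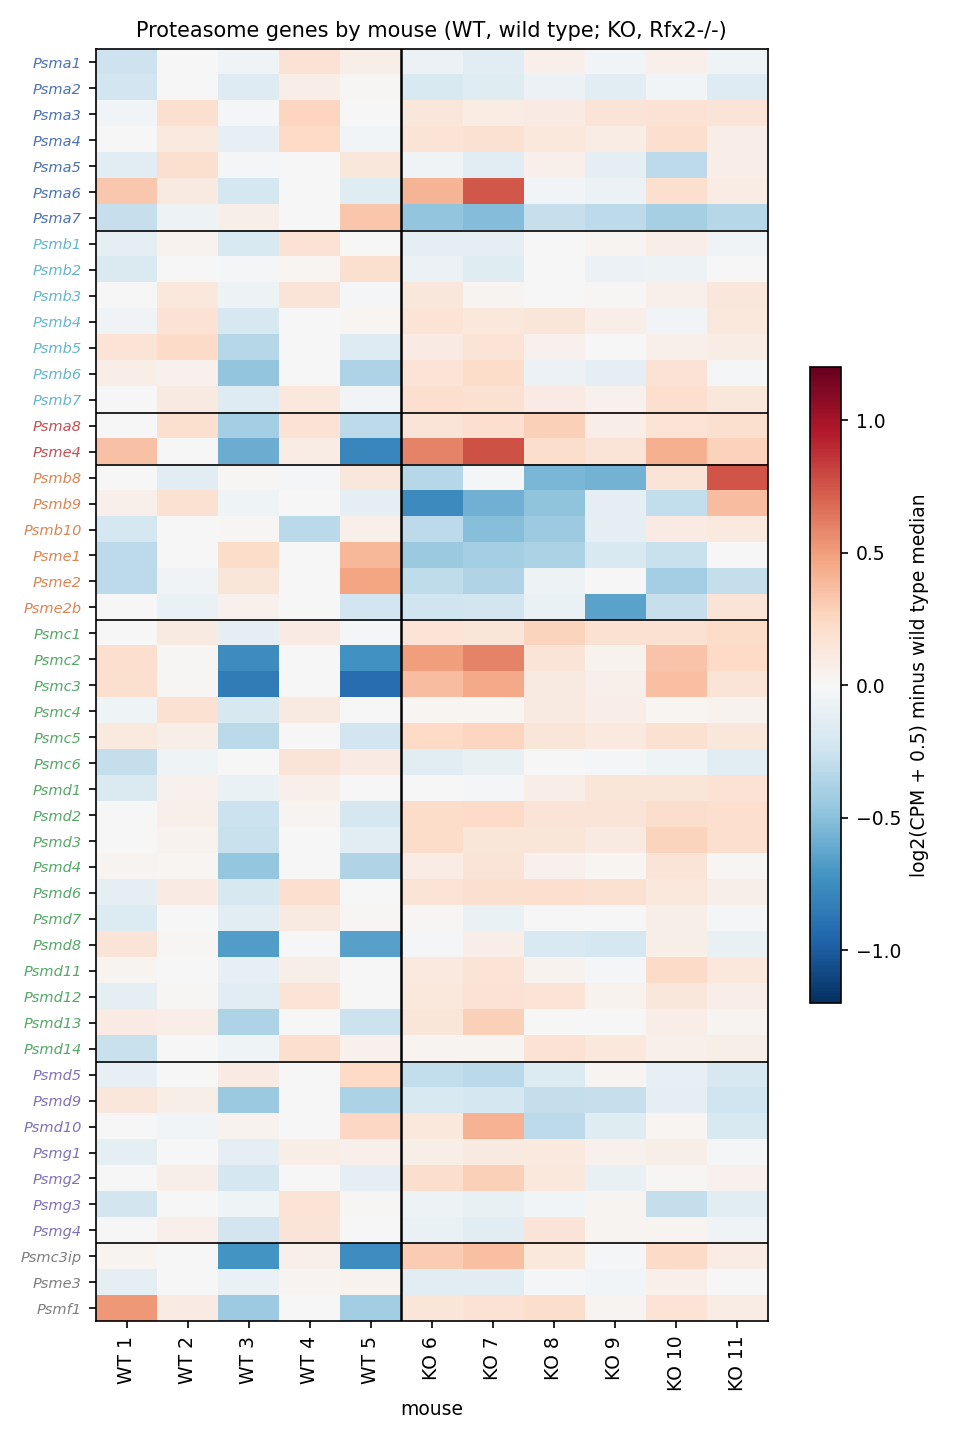
Each tested member (rows, grouped by role) in each mouse (columns), as log2(CPM + 0.5) minus the wild type median. In columns WT 3 and WT 5 the rows of Psme4, Psmc2, Psmc3 and Psmc3ip are among the darkest blue, and the row of Psma7 is blue in all 6 KO (Rfx2-/-) columns.

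Genes that work with the proteasome were taken as a list of receptors, shuttles, deubiquitinases, ligases, transcription factors and ubiquitin genes. Of its 27 genes, 1 was called higher and none lower at an adjusted p of 0.01 (5 higher and none lower at 0.05, 11 at an unadjusted p under 0.05), with a median log2 fold change of 0.04. Of all tested genes, 0.730% were higher and 1.94% lower at 0.01, and 6.15% higher and 8.78% lower at 0.05. At an unadjusted p under 0.05 stood 41.8% of them. The gene of the list that was called was Ube3c, a ubiquitin ligase that binds the proteasome. It was at 158, 156, 134, 163 and 129 CPM in wild type and at 205, 211, 178, 193, 194 and 193 CPM in Rfx2-/- mice, without overlap (log2 fold change 0.40, SE 0.075, adjusted p = 0.0085, edgeR). The call was lost without any 1 of 9 of the 11 mice, all but wild type replicates 1 and 4, with log2 fold changes of 0.37 to 0.43 and adjusted p-values up to 0.0264 (edgeR), and it held without wild type replicates 3 and 5 together (0.31, adjusted p = 0.00555). Nfe2l1, the factor that raises proteasome genes when the proteasome is blocked, had a log2 fold change of -0.21 (adjusted p = 0.111, edgeR), and was named here after its value was seen. It was at 268 and 302 CPM in wild type replicates 3 and 5. The other wild type mice were at 208 to 239 CPM, and Rfx2-/- mice at 192 to 236 CPM. Log2 fold changes in the list went both ways, with 17 genes above 0 and 10 below. Of 11 genes of antigen presentation and interferon response, such as Tap1, B2m and Irf1, none was called in either direction by edgeR at 0.01 or 0.05. At an unadjusted p under 0.05 stood 2 of the 11, against 41.8% of all tested genes, and the median of the 11 was -0.16.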

How the data were processed

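Testis RNA of 5 wild type and 6 Rfx2-/- mice at P21 was analysed. The authors mapped single reads with STAR 2.4 to GRCm38, dropped reads that had more than 1 position, and counted those on gene exons with featureCounts 1.4.6, leaving out reads on exons of different genes (versions per the submitters' processing notes). The values deposited by the authors are raw counts, without normalization. Symbols came from GENCODE M21, and replicates are separate mice. Genes kept by filterByExpr were scaled by TMM and tested with edgeR 4.0.16 (glmQLFit and glmQLFTest, R 4.3.3, no covariates), adjusted by Benjamini-Hochberg over all 15745 tested genes and called at 0.01. Alternatives were DESeq2 1.42.0, limma 3.58.1 voom with quality weights, other scalings, filters and limits, a round spermatid score as covariate, and each mouse left out; leaving out wild type replicates 3 and 5 together was chosen after seeing the data. The 4 subunit ratios (0.5 added to both counts) were tested by two-sided exact permutation over 462 splits, called at an adjusted p of 0.05. The tests were tried on simulated counts. Named genes were all members of the germ cell, immune, thymus, PA28, PA200, PI31 and assembly classes, the counterparts Psma7, Psmb5, Psmb6 and Psmb7, members called, the 3 highest and 3 lowest per length, members not tested, and Psmc3ip; Psmc1, Psmc2, Psmc5 and Psmd3 were added after their values were seen. The members and lists were chosen with earlier results of these data known. A count of 3, taken as the floor for counting error alone, equals 0.0852 to 0.139 CPM. Some single genes are not analysed here. Figures were drawn with matplotlib 3.10.9.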

Additional observations from a re-analysis of the deposited data

Results flagged for a closer look

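Among 66 sets of values of named genes and ratios within a genotype, 1 had a value far from the others by Dixon's criterion at the 95% level, where about 1 in 20 sets would be expected by chance. Psmd10, which encodes the assembly factor gankyrin, was at 17.5 CPM in wild type replicate 5 and between 14.3 and 15.1 CPM in the other wild type mice. The gap was 0.771 of the whole range of that genotype. The Rfx2-/- mice covered 11.7 to 19.7 CPM, on both sides of this value.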

How the results depend on the processing

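No member was called under DESeq2's size factors in edgeR, total counts, a filter of 1 count, a filter of 50 counts on average, or without wild type replicates 3 and 5. The number called lower was 1 (Psma7 each time) by the DESeq2 Wald test, by limma voom, with the round spermatid score, at an adjusted p of 0.05 and at an unadjusted p of 0.01, and the number called higher was 3 by the Wald test and at each of these 2 limits. Leaving out 1 mouse at a time gave 0 to 1 lower (1 without wild type replicate 1) and 0 higher. Ratio differences over these fits were 0.513 to 0.745 for Psma8 to Psma7, -0.422 to -0.123 for Psmb8 to Psmb5, -0.791 to -0.475 for Psmb9 to Psmb6 and -0.333 to -0.169 for Psmb10 to Psmb7, on the log2 scale, and only Psmb9 to Psmb6 changed its side of the limit (-0.79 without Rfx2-/- replicate 11). Log2 fold changes turned sign as follows. With wild type replicates 3 and 5 left out, the value was 0.0102 for Psmb10, -0.0484 for Psmb5, 0.0474 for Psmb8, 0.0274 for Psmd10 and -0.0786 for Psmf1. With scaling by total counts, the value was -0.0681 for Psmb5, -0.0263 for Psmb7, -0.0886 for Psmg1 and -0.00992 for Psmg2. With limma voom, the value was -0.0444 for Psmb5 and 0.0935 for Psmb8. With DESeq2's size factors in edgeR, the value was 0.00313 for Psmb8, 0.0073 for Psme3 and 0.0195 for Psmg4. With the DESeq2 Wald test, the value was 0.00297 for Psmb8, 0.00721 for Psme3 and 0.0206 for Psmg4. With the round spermatid score as a covariate, the value was 0.0115 for Psme3 and 0.0137 for Psmg4. Over the fits that left out 1 mouse, Psmb8 ranged from -0.29 to 0.0928, Psmd10 ranged from -0.148 to 0.02, Psme3 ranged from -0.0404 to 0.012 and Psmg4 ranged from -0.049 to 0.0363. The cause of these changes was not tested, and the reported edgeR test gave each of these genes an adjusted p above 0.1. For Psmb7 it went down to 0.0738 without wild type replicate 4 (edgeR) and to 0.0453 by the DESeq2 Wald test. Ube3c stayed above 0 under each of these alternatives, with 0.25 by total counts. Depth limits Psmb8, Psmb9, Psmb11 and Psme2b most. No paired analysis was possible because the labels do not say which mice share a litter and no replicate number occurs in both genotypes; littermates were used where the study could, so some mice may share a litter.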
